A study of Mus musculus with 58 samples.

Results

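Genes of the direct-pathway spiny neurons of the mouse striatum were followed through all count tables of the series. The 9 genes, Drd1, Tac1, Pdyn, Isl1, Chrm4, Eya1, Sfxn1, Slc35d3 and Ebf1, were chosen by name as genes used to recognise these neurons. All 9 were found among the 54532 genes of the RNA-seq tables and among the 18411 genes of the tables of lysate RNA and ribosome footprints. In the whole striatum none of the 9 passed the test for a difference in RNA level between del/+ and wt mice of either line in either sex after adjustment over all genes, and none did in footprints or in footprints per RNA where it could be tested. Between 0% and 0.144% of all genes tested were called in these comparisons. Oprk1, which encodes the kappa opioid receptor for the Pdyn product dynorphin, was called higher in RNA-seq of 16p11.2 del/+ than of wt mice over both sexes. It was not called by edgeR in either sex alone or in lysate RNA. In 16p11.2 males DESeq2 called 1 of the 7 genes of peptide processing and receptors, a list that holds Oprk1. The edgeR call over both sexes held with each library left out in turn (adjusted p 0.00159 to 0.0156). It was lost with the replicate number as a block (adjusted p = 0.0519), and whether that number pairs these libraries is not known.

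Spiny projection neurons are the main output neurons of the striatum and fall into a direct and an indirect pathway. Direct-pathway neurons carry the D1 dopamine receptor, which raises cyclic AMP through the G protein subunit Gnal and the adenylyl cyclase Adcy5, and they release substance P and dynorphin together with GABA. Indirect-pathway neurons carry the D2 dopamine receptor and the adenosine receptor encoded by Adora2a and release enkephalin. Among the 9 genes, Drd1 and Chrm4 encode receptors, Tac1 and Pdyn encode neuropeptide precursors, Isl1, Ebf1 and Eya1 encode regulators of transcription, and Slc35d3 and Sfxn1 encode transporters.

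The RNA-seq data were 32 libraries of striatum from adult littermates, 4 for each sex and genotype in each of 2 lines. The 16p11.2 line carried a deletion of the 16p11.2 homologous interval on 1 chromosome (16p11.2 del/+), and the 3g line carried premature stop codons made with CRISPR in Taok2, Sez6l2 and Mvp on 1 chromosome (3g del/+). Controls were wt littermates of each line, and the mutations were present in all cells of the animals. The strain of both lines was taken as B6129S, which the paper does not name. The paper states that the zygotes for the 3g line were sired by males of another strain and that 16p11.2 mice were bought. Whether the lines share a genetic background is therefore not known. Striatal lysates of other male mice gave paired libraries of lysate RNA and of ribosome footprints, with 3 del/+ and 3 wt animals of the 3g line and 3 del/+ and 4 wt animals of the 16p11.2 line. The p-values measure the spread between these libraries. CPM values, counts scaled to the size of each library, give the levels. They were normalised over all libraries of an assay and are compared between samples only, since a CPM value is not corrected for gene length. In whole striatum, fewer direct-pathway neurons and less RNA per neuron cannot be told apart.

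Total counts were 11711099 to 65529807 in RNA-seq, 15102576 to 19122488 in lysate RNA and 342052 to 678130 in footprint libraries. Of the targeted genes, Sez6l2 was at 126 to 162 CPM in 16p11.2 del/+ males and 289 to 399 CPM in their wt littermates, and at 189 to 225 CPM in 3g del/+ males and 274 to 335 CPM in theirs. Taok2 was at 83.2 to 94.9 CPM in 16p11.2 del/+ males against 153 to 183 CPM in wt males, whereas 3g del/+ and wt males overlapped at 156 to 197 and 176 to 182 CPM. The Taok2 level therefore did not separate the 3g labels in males. Mvp was at 3.12 to 4.13 CPM in 16p11.2 del/+ males against 6.92 to 7.93 CPM in wt males, and at 5.17 to 7.44 CPM in 3g del/+ males against 7.19 to 8.60 CPM in wt males, where the ranges overlapped. Of the 32 RNA-seq libraries, 3 stood apart. On a scale between the lines, with 0 at the 3g and 1 at the 16p11.2 wt females, 3g wt male 17 lay at 0.849 (other 3g libraries -0.080 to 0.174) and 16p11.2 del/+ male 4 lay at 0.211 (other 16p11.2 libraries 0.818 to 1.25). Against its label, 16p11.2 del/+ female 1 showed Ddx3y, a gene of the Y chromosome, at 38.5 CPM and Xist at 0.462 CPM. Markers of cortical neurons, which lie outside the striatum, summed to 34.5 to 627 CPM in the 3g line without male 17 and to 745 to 1314 CPM in the 16p11.2 line. The defining markers of direct-pathway neurons were present in every RNA-seq library, where the 9 genes summed to 637 to 955 CPM.

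Cyclic AMP acts on transcription through the factor CREB, which binds the cyclic AMP response element (CRE). The stretches before the transcription start of the D1 receptor gene, of both peptide genes and of Isl1 are shown as the start regions of the receptor, the peptides and a transcription factor by which these neurons are known. Each is the 250 bases upstream of a RefSeq start on GRCm38.p6, read 5′ to 3′ on the strand of the gene, and capitals mark the CRE half-site TGACG or its reverse complement CGTCA. The Drd1 stretch is chr13:54055659-54055908 (minus strand), the Tac1 stretch chr6:7554811-7555060 (plus strand), the Pdyn stretch chr2:129699939-129700188 (minus strand) and the Isl1 stretch chr13:116309689-116309938 (minus strand).
Drd1: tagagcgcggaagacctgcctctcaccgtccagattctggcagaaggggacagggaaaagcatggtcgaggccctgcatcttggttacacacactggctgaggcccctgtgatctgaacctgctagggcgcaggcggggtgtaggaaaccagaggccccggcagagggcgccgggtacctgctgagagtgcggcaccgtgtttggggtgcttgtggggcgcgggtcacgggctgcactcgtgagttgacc
Tac1: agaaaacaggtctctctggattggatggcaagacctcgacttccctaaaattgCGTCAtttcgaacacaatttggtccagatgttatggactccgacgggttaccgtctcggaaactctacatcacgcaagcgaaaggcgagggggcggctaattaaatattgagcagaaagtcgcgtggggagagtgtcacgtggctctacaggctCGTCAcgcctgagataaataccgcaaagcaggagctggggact
Pdyn: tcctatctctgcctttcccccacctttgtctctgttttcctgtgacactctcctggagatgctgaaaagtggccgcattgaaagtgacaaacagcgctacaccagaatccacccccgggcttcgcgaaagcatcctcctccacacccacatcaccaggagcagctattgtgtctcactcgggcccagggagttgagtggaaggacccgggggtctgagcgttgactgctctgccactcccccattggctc
Isl1: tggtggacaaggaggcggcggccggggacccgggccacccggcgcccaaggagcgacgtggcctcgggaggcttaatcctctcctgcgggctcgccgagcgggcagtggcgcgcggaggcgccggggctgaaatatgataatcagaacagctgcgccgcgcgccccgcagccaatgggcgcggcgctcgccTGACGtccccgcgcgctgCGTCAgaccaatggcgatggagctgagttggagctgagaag

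Of the 9 genes, 8 had at least 1 such window, 11 in all, and Eya1 had none in the table used. A CRE half-site on either strand stood in the windows of 3 of the 8 genes: at -197 and -43 before the start of Tac1, at -59 and -41 before that of Isl1 and at -149 before that of Slc35d3. These were 3 of the 11 windows, and over all 32851 mouse windows of the same length 17.8% held a half-site. The full element TGACGTCA, which contains the half-site, stood in none of the 11 windows and in 1.55% of all windows. The letters TATAAA stood in none of the 11 and in 12.4% of all windows, the EBF motif stood in none and in 0.779%, and CCAAT stood in 6 of the 11 windows, of 5 genes, and in 33.8% of all windows. These are matches of letters, not measured binding sites. Drd1 (chr13:54051183-54055658) and Sfxn1 (chr13:54071656-54108346) were neighbours on GRCm38 with 15997 bases and no annotated gene between them. Chrm4 (chr2:91922189-91929835) overlapped Mdk and Sfxn1 overlapped Gm52069, and whether counting used strand is not given in the sources used here, so reads of such pairs may have been shared.

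The first question was whether the D1 receptor gene differed with genotype. In the 3g line Drd1 was at 251, 262, 310.4 and 247 CPM in wt males and at 314, 256, 270.1 and 258 CPM in del/+ males. In females it was at 251, 258, 267 and 234 CPM in wt and at 253, 244, 258 and 260.0 CPM in del/+ libraries. The groups overlapped in both sexes, and the log2 fold changes were 0.05 (SE 0.10) in males and 0.01 (SE 0.04) in females. The 95% intervals were -0.18 to 0.28 and -0.09 to 0.10.

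In the 16p11.2 line Drd1 was at 241, 251, 279 and 231 CPM in wt males and at 278, 214, 233 and 199 CPM in del/+ males. Wt females had 275, 285, 231 and 284 CPM and del/+ females had 217, 298, 292 and 217 CPM. Here too the groups overlapped, with log2 fold changes of -0.11 (95% interval -0.37 to 0.14) in males and -0.08 (-0.33 to 0.18) in females. The lowest value of each del/+ group came from a library that stood apart, del/+ male 4 and the library labelled del/+ female 1. Another del/+ female library, which did not stand apart, was also at 217 CPM. Over both sexes and without del/+ male 4 and the library labelled del/+ female 1 the log2 fold change was -0.03 (SE 0.08).

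**Figure D1:**
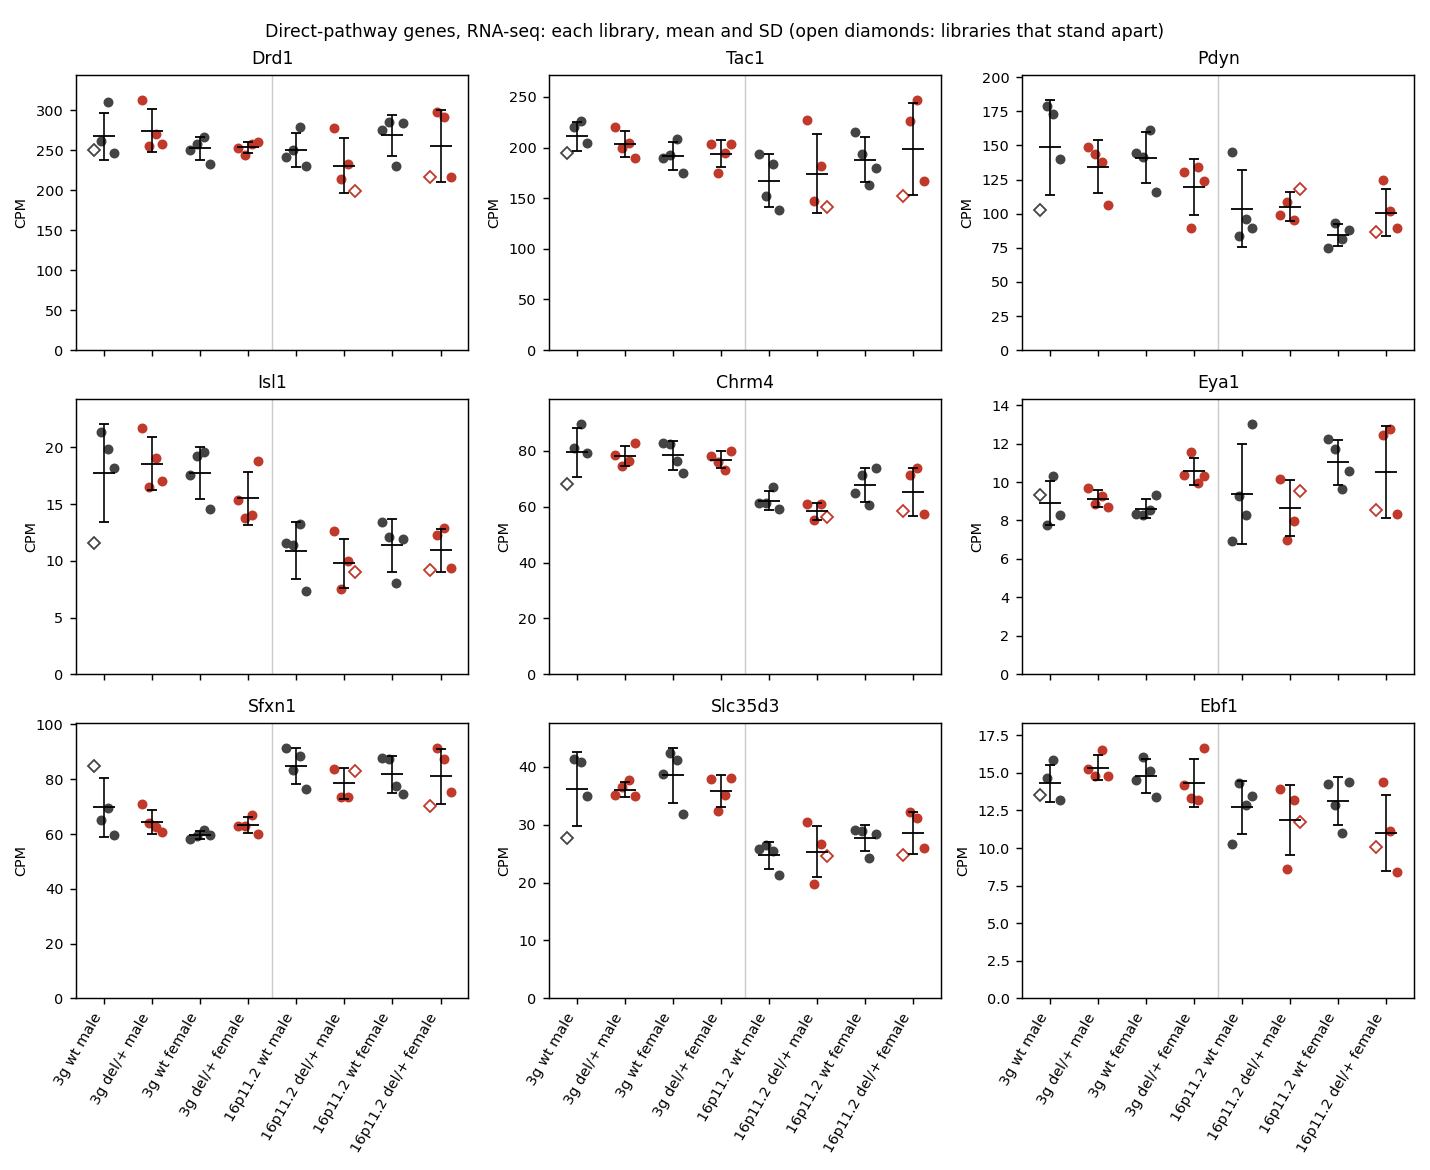
RNA-seq level in CPM (y axis) of each of the 9 genes in the 32 libraries, by line, sex and genotype, with 1 point per library, bars at the group mean ± SD, and open diamonds for the 3 libraries that stood apart. The del/+ points overlap the wt points in every panel except Eya1 of 3g females, where 4 del/+ libraries at 9.92 to 11.6 CPM lie above 4 wt libraries at 8.27 to 9.32 CPM.

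Chrm4 encodes the M4 muscarinic receptor, which lowers cyclic AMP in the same neurons. It was at 68.3 to 89.8 CPM in 3g wt and 74.5 to 82.9 CPM in 3g del/+ males, and at 59.0 to 66.9 and 55.2 to 61.0 CPM in 16p11.2 wt and del/+ males. In females the ranges were 72.0 to 82.7 and 73.1 to 80.1 CPM in the 3g line, and 60.7 to 73.8 and 57.4 to 73.9 CPM in the 16p11.2 line. The wt and del/+ ranges overlapped in all 4 comparisons.

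Tac1, the precursor of substance P, was at 195, 220.1, 226 and 204 CPM in 3g wt males and at 220.2, 199, 204 and 190.1 CPM in del/+ males. In the 16p11.2 line wt males had 194, 152, 184 and 139 CPM and del/+ males 227, 148, 181 and 141 CPM, a log2 fold change of 0.07 (SE 0.16). The spread within the 16p11.2 groups was wider than the difference between their means. Female ranges were 175 to 208 (wt) and 174 to 204 CPM (del/+) in the 3g line and 163 to 216 (wt) and 153 to 247 CPM (del/+) in the 16p11.2 line.

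Pdyn, the precursor of dynorphin, gave the lowest log2 fold change of the 9 genes in both sexes of the 3g line and the highest in 16p11.2 females. In 3g females it was at 145, 142, 162 and 116 CPM in wt and at 131, 89.3, 134 and 124 CPM in del/+ libraries, a log2 fold change of -0.24 (SE 0.12, 95% interval -0.51 to 0.03, adjusted p = 0.501). In 3g males it was at 103, 179, 173 and 140.3 CPM in wt and at 149, 144, 138 and 106 CPM in del/+ libraries, a log2 fold change of -0.14 (SE 0.18). The lowest wt male value came from male 17, which stood apart, and without it the log2 fold change was -0.29 (unadjusted p = 0.0357, adjusted p = 1.00). Over both sexes of the 3g line it was -0.19 (adjusted p = 0.871), and the groups overlapped in each sex.

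In 16p11.2 females Pdyn was at 74.9, 93.1, 81.3 and 88.4 CPM in wt and at 86.6, 124, 102 and 89.8 CPM in del/+ libraries. The log2 fold change was 0.25 (SE 0.11, 95% interval 0.01 to 0.49), with an unadjusted p of 0.0410 and an adjusted p of 0.998. The groups overlapped, and a 2-sided exact permutation test on the CPM values gave p = 0.143. Leaving out 1 library at a time moved the log2 fold change between 0.14 (without del/+ female 2) and 0.31 (without the library labelled del/+ female 1, unadjusted p = 0.0157, adjusted p = 0.774). In 16p11.2 males wt libraries had 145, 83.4, 96.3 and 89.8 CPM and del/+ libraries 98.9, 108, 95.5 and 118 CPM. The difference between the sexes in the genotype effect was 0.22 on the log2 scale (unadjusted p = 0.306).

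Oprk1 was the only gene of the pathway lists given further on that edgeR called in any comparison. Over both sexes of the 16p11.2 line it was higher in del/+ mice by a log2 fold change of 0.45 (SE 0.07, 95% interval 0.31 to 0.60, edgeR adjusted p = 0.00412). Males had 23.8, 25.1, 23.3 and 26.6 CPM in wt and 34.9, 34.5, 42.2 and 36.4 CPM in del/+ libraries, and the groups did not overlap. Females had 31, 32.2, 32.2 and 38.7 CPM in wt and 47.9, 38.1, 39.7 and 41.2 CPM in del/+ libraries, where 1 wt library lay above the lowest del/+ library. Within each sex the log2 fold changes by edgeR were 0.59 (adjusted p = 0.104) and 0.31 (adjusted p = 0.93), and their difference had an unadjusted p of 0.0667. In males DESeq2 called 1 of the 7 genes of the list that holds Oprk1. By edgeR Oprk1 had the lowest adjusted p of that list there. Without del/+ male 4 and the library labelled del/+ female 1 the log2 fold change over both sexes was 0.41 (adjusted p = 0.0164). The effect in females less that in males was then -0.35 (unadjusted p = 0.0217, adjusted p = 0.995). With the replicate number as a block the log2 fold change over both sexes was 0.45 and the adjusted p was 0.0519. Whether these libraries are paired by that number is not known. In the 3g line Oprk1 overlapped between genotypes, with log2 fold changes of 0.01 in males and -0.04 in females, and 3g wt male 17 had 26.9 CPM where the other 3g libraries had 35.5 to 51.8 CPM. In lysate RNA of 16p11.2 males it was at 21.6, 22.4, 17.7 and 33.1 CPM in wt and at 20.6, 20.7 and 26.5 CPM in del/+ animals, which overlapped (log2 fold change -0.07, unadjusted p = 0.732).

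**Figure D2:**
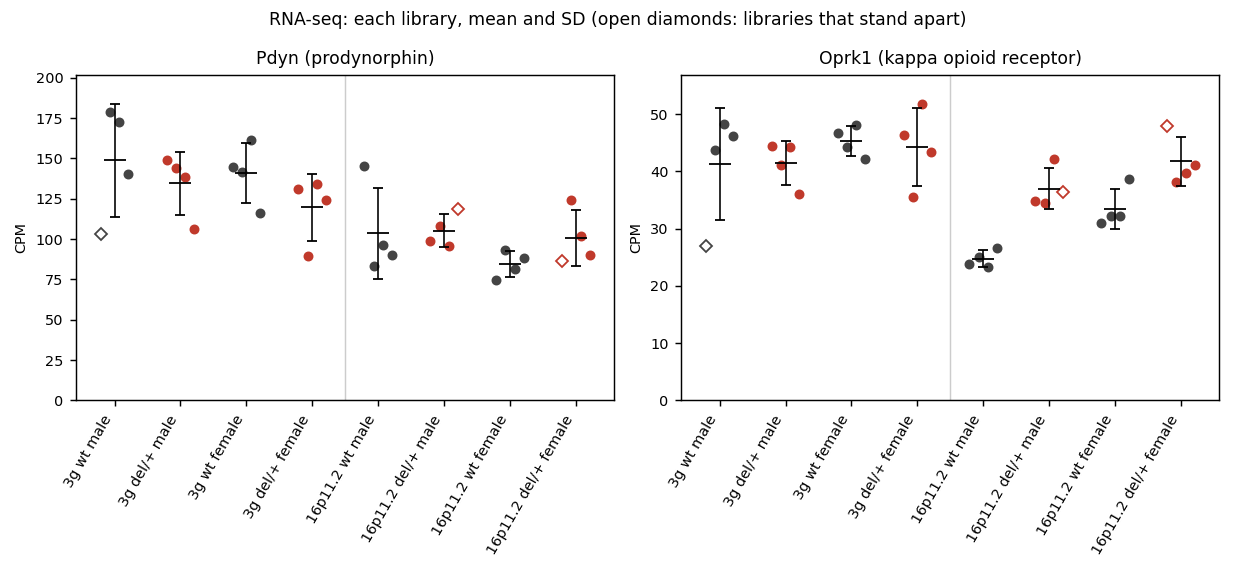
CPM (y axis) of Pdyn, the dynorphin precursor, and Oprk1, its receptor, in the 32 RNA-seq libraries by line, sex and genotype, with 1 point per library, bars at the group mean ± SD, and open diamonds for the 3 libraries that stood apart. For Oprk1 the 4 del/+ males of the 16p11.2 line at 34.5 to 42.2 CPM lie above the 4 wt males at 23.3 to 26.6 CPM, while the Pdyn groups overlap in all 4 pairs.

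Eya1, a transcriptional coactivator with phosphatase activity, was the member with the smallest p-value. In 3g females it was at 10.4, 11.6, 9.92 and 10.3 CPM in del/+ and at 8.33, 8.27, 8.55 and 9.32 CPM in wt libraries, and the groups did not overlap. The means were 10.6 ± 0.712 and 8.62 ± 0.484 CPM (SD, n = 4 each, exact permutation p = 0.0286, the smallest that 4 against 4 allows). The log2 fold change was 0.29 (SE 0.07, 95% interval 0.14 to 0.44), with an unadjusted p of 0.00126. It did not pass the test after adjustment, with an adjusted p of 0.224 by edgeR and 0.0742 by DESeq2. Leaving out 1 library at a time gave log2 fold changes of 0.24 to 0.33 and adjusted p-values of 0.0512 (without wt female 39) to 0.619. In this comparison 5.47% of all 20342 genes had ranges that did not overlap, against 1 of the 9 members, and 2098 of 19024 genes, 11%, had an unadjusted p under 0.05.

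Summed marker levels of other cell types in the same libraries are given beside this. The 6 cortical-neuron markers summed to 160 to 627 CPM (median 461) in 3g del/+ females and 112 to 559 CPM (median 154) in wt females, and all 6 had positive log2 fold changes with none called. Choroid plexus markers summed to 16.5 to 27.9 CPM in del/+ and 31.8 to 35.8 CPM in wt females. Their part in the Eya1 result was not tested. In 3g males Eya1 was at 9.70, 8.83, 9.28 and 8.71 CPM in del/+ and at 9.32, 7.76, 10.3 and 8.27 CPM in wt libraries, which overlapped. The effect in females exceeded that in males by 0.25 on the log2 scale (unadjusted p = 0.0624, adjusted p = 0.901). In the 16p11.2 line Eya1 overlapped between genotypes, at 6.92 to 13 (wt) and 6.99 to 10.2 CPM (del/+) in males and 9.62 to 12.2 (wt) and 8.36 to 12.8 CPM (del/+) in females.

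Isl1 and Ebf1 are transcription factors that direct the development of these neurons. Isl1 was at 11.6, 21.4, 19.9 and 18.2 CPM in 3g wt males and at 21.7, 16.5, 19.0 and 17.1 CPM in del/+ males, the lowest value being that of male 17. In 16p11.2 males it was at 11.5, 11.4, 13.3 and 7.37 CPM in wt and at 12.7, 7.50, 9.98 and 9.04 CPM in del/+ libraries, a log2 fold change of -0.15 (95% interval -0.61 to 0.30). Females had 14.6 to 19.6 (wt) and 13.7 to 18.8 CPM (del/+) in the 3g line and 8.06 to 13.4 (wt) and 9.21 to 12.9 CPM (del/+) in the 16p11.2 line, and all 4 pairs of groups overlapped. Ebf1 had the highest log2 fold change of the 9 genes in 3g males, 0.11 (adjusted p = 0.974), with 13.5, 14.6, 15.9 and 13.2 CPM in wt and 15.3, 14.8, 16.5 and 14.8 CPM in del/+ libraries. It had the lowest in 16p11.2 females, -0.26 (SE 0.15, adjusted p = 0.998), with 11 to 14.4 CPM in wt and 8.41 to 14.4 CPM in del/+ libraries. Both pairs of groups overlapped, as did those of 3g females and 16p11.2 males.

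Slc35d3 encodes a solute carrier needed for D1 receptor trafficking, and Sfxn1 encodes a serine transporter of the mitochondrion. Slc35d3 ranged from 27.7 to 41.3 (wt) and 35 to 37.7 CPM (del/+) in 3g males and from 21.3 to 26.4 (wt) and 19.8 to 30.4 CPM (del/+) in 16p11.2 males. In females it ranged from 31.9 to 42.5 (wt) and 32.3 to 38.1 CPM (del/+) in the 3g line and from 24.3 to 29.1 (wt) and 24.9 to 32.3 CPM (del/+) in the 16p11.2 line, and all 4 pairs of groups overlapped. Sfxn1 in 3g females was at 58.3, 59.2, 61.5 and 59.6 CPM in wt and at 62.8, 63.1, 67.1 and 59.9 CPM in del/+ libraries, and 3 of 4 del/+ values lay above the highest wt value. The log2 fold change was 0.08 (SE 0.04, unadjusted p = 0.0681, adjusted p = 0.484). In 16p11.2 males Sfxn1 overlapped at 76.4 to 91.3 (wt) and 73.7 to 83.8 CPM (del/+), as it did in 16p11.2 females at 74.6 to 87.8 and 70.2 to 91.3 CPM. In 3g males it overlapped at 59.6 to 84.7 and 60.6 to 70.8 CPM, the highest wt value being that of male 17.

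No member was called in any RNA-seq comparison of genotypes, which has to be read against how few genes were called at all. The share of tested genes called at an edgeR adjusted p under 0.05 was 0% (males) and 0.00526% (females) in the 3g line, and 0.106% (males) and 0.144% (females) in the 16p11.2 line. Over both sexes it was 0.00504% in the 3g and 0.175% in the 16p11.2 line, and for the genotype by sex term it was 0% in each line. With no gene called in 3g males, the targeted Sez6l2 was not called there either, though its ranges did not overlap. The number of members with an unadjusted p under 0.05 was 0, 1, 0 and 1 of 9 in the 4 comparisons by sex, beside 1.44%, 11%, 5.82% and 4.47% of all genes tested. DESeq2 also called 0 of 9 in each. The members' median log2 fold changes were 0.00, -0.03, -0.10 and -0.06 in the same order, while the median over all genes lay between -0.01 and 0. Ranges that did not overlap were found for 0 of 9 members in 3g males (1.98% of all genes) and in males (3.86%) and females (2.69%) of the 16p11.2 line. The 95% intervals of all 9 genes in the 4 comparisons lay between -0.61 and 0.49.

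**Figure D3:**
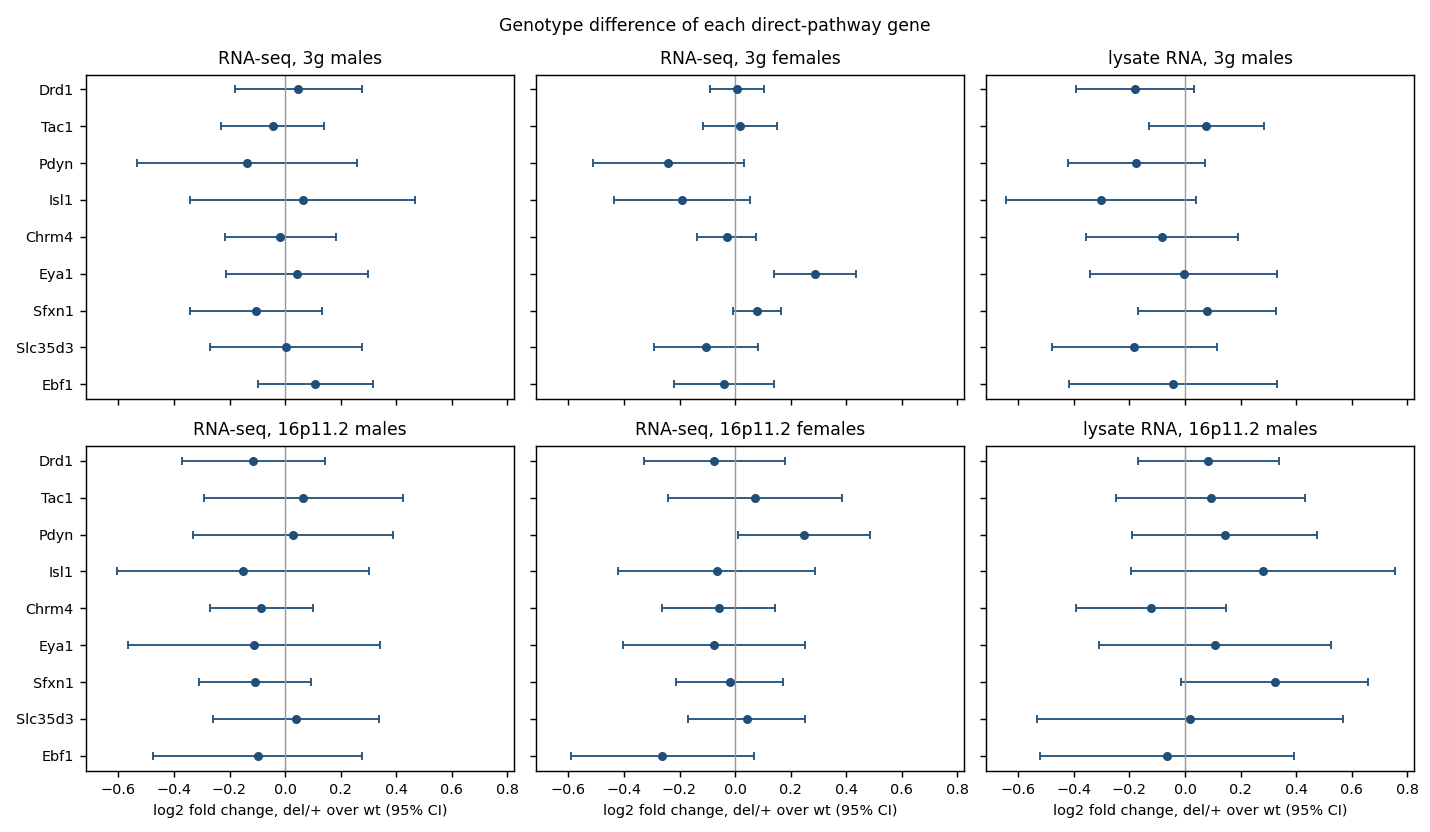
Log2 fold change of del/+ against wt (x axis) with its 95% interval for each of the 9 genes in the RNA-seq comparisons by sex and the lysate RNA comparisons of both lines. The intervals of Eya1 in 3g females and of Pdyn in 16p11.2 females lie above 0, and all others include it.

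The sexes were compared in wt mice. In the 3g line the share of genes called was 0.0605% and no member was called, with log2 fold changes of females against males from -0.23 (Sfxn1, unadjusted p = 0.0161, adjusted p = 0.837) to 0.09 (Slc35d3). Sfxn1 was at 84.7 CPM in wt male 17 and at 59.6 to 69.3 CPM in the other wt males. Without that library the Sfxn1 difference was -0.12. In the 16p11.2 line 0.0053% of genes and no member were called, with log2 fold changes from -0.30 (Pdyn, unadjusted p = 0.0625) to 0.23 (Eya1). Drd1 differed by -0.09 in the 3g and 0.10 in the 16p11.2 line.

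Between the lines the wt levels stand side by side, but line, experiment and any difference in genetic background cannot be told apart. Pdyn was at 145 ± 26.3 CPM in 3g and 94.1 ± 21.8 CPM in 16p11.2 wt libraries (mean ± SD, n = 8 each), and Isl1 was at 17.8 ± 3.21 and 11.1 ± 2.24 CPM. Slc35d3 was at 37.4 ± 5.33 and 26.2 ± 2.63 CPM, while Sfxn1 was lower in the 3g line at 64.7 ± 8.92 against 83.4 ± 6.38 CPM. Drd1 was at 259.9 ± 22.8 and 259.7 ± 23.8 CPM. The ranges of all 9 genes overlapped, as they did for all but 3.31% of genes. Without 3g wt male 17, whose values of Isl1, Slc35d3 and Sfxn1 (11.6, 27.7 and 84.7 CPM) lay within the 16p11.2 range, these 3 genes no longer overlapped, beside 36.6% of all genes. In the lysate RNA of other wt males Pdyn was again the higher in the 3g line, at 28.5, 30.7 and 28.7 CPM against 24.1, 15.8, 16.4 and 22.0 CPM, and was the only one of the 9 genes whose ranges did not overlap (10.9% of all genes). Cortical-neuron markers and the oligodendrocyte markers differed between the lines in RNA-seq, the latter at 3904 to 6980 CPM in the 3g line without male 17 (10429 CPM) and 8191 to 13677 CPM in the 16p11.2 line without del/+ male 4 (5279 CPM), and their part in these differences was not tested.

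The lysate RNA gave a further comparison of genotypes in other males. Drd1 was at 136, 152 and 147 CPM in 3g wt and at 119.7, 128 and 135 CPM in del/+ animals, and the groups did not overlap. The log2 fold change was -0.18 (SE 0.10, unadjusted p = 0.0910, adjusted p = 0.940), and the exact permutation p of 0.1 was the smallest that 3 against 3 allows. It was the only 1 of 9 members without overlap, beside 9.63% of all genes, and 3g males of the RNA-seq series had a Drd1 log2 fold change of 0.05. Isl1 had the lowest value in this comparison, -0.30 (SE 0.16, adjusted p = 0.940), at 11.9, 16.5 and 11.4 CPM in wt and 10.6, 9.49 and 11.9 CPM in del/+ animals. In 16p11.2 males Drd1 was at 117, 135, 124 and 147 CPM in wt and at 129, 129 and 157 CPM in del/+ animals. Sfxn1 had the highest log2 fold change there, 0.32 (SE 0.15, unadjusted p = 0.0587, adjusted p = 0.990), at 63.2, 82.7, 93.7 and 70.9 CPM in wt and 113, 101.7 and 75.7 CPM in del/+ animals. No member was called in either line, beside 0.0209% of genes in the 3g and 0.133% in the 16p11.2 line, and no member was without overlap in the 16p11.2 line (5.74% of genes).

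Ribosome footprints, the stretches of mRNA that a translating ribosome protects, were sparse. Drd1 had 29 to 123 and Sfxn1 7 to 30 footprint counts per library, and Isl1, Eya1 and Ebf1, with 0 to 15, did not pass the filter and were not tested with it. Isl1 and Eya1 had 0 counts in 1 of the 4 wt animals of the 16p11.2 line, which allows a level of up to 8.84 CPM by the 3 counts a count of 0 can hide. Drd1 footprints were at 65.5, 166 and 136 CPM in 3g wt and at 100.3, 118 and 177 CPM in del/+ animals. In 16p11.2 males they were at 103, 105, 95.2 and 124 CPM in wt and at 132, 117 and 103 CPM in del/+ animals. Both pairs of groups overlapped.

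In 3g males Chrm4 and Pdyn had the lowest log2 fold changes of footprints among the members tested. Chrm4 was at 79.1, 142 and 69.2 CPM in wt and at 57.3, 77.7 and 60.3 CPM in del/+ animals (log2 fold change -0.56, SE 0.28, adjusted p = 0.660). Pdyn was at 88.1, 113 and 64.8 CPM in wt and at 44.8, 68.0 and 68.9 CPM in del/+ animals (-0.53, SE 0.27, adjusted p = 0.662). Without 1 wt animal, the one with the highest wt values of both genes, the log2 fold changes were -0.19 for Chrm4 and -0.33 for Pdyn. Leaving out each animal in turn gave -0.74 to -0.19 for Chrm4 and -0.71 to -0.33 for Pdyn, with adjusted p of 0.506 or more by edgeR. Slc35d3 had the highest value of the 6 members tested, 0.44 (SE 0.35). Each of these 3 pairs of groups overlapped. Ebf1, which did not pass the filter, was at 4.52, 8.72 and 8.93 CPM in wt (2 to 4 counts) and at 17.9, 15.8 and 21.5 CPM in del/+ animals (10 to 15 counts), which did not overlap. Without the filter its log2 fold change was 1.35 (unadjusted p = 0.0257, adjusted p = 0.586). The share of all genes without overlap was not computed without the filter. Of the members 0 of 6 were called in either line, beside 0.0132% of genes in the 3g and 0.117% in the 16p11.2 line. Over all footprint libraries 7 members passed the filter, of which Isl1 did not overlap between 3g wt (15.8, 17.4 and 22.3 CPM) and del/+ animals (10.7, 14.6 and 11.5 CPM), beside 12.9% of genes. None was without overlap in the 16p11.2 line (6.62% of genes).

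Footprints per RNA are the log2 ratio of footprint CPM to lysate RNA CPM of the same animal, each with a prior count of 2. They describe how densely an RNA is occupied by ribosomes. The prior count raises ratios that rest on few footprint counts, as for Isl1 with 0 to 14 counts in the wt animals. In the 7 wt animals Chrm4 had the highest ratio of the members that passed both filters, 1.58 ± 0.574 (SD), at the 86.8th percentile of 7619 genes. Pdyn had 1.40 ± 0.421 (82.3rd percentile), Slc35d3 0.98 ± 0.551 (69.3rd), Tac1 0.68 ± 0.323 (57.7th) and Isl1 0.56 ± 0.939 (53.2nd). Drd1 at -0.26 ± 0.349 (23.5th percentile) and Sfxn1 at -0.75 ± 0.441 (10.6th) were below the median of all genes, 0.49. The ranges over the 7 animals overlapped between all neighbours in this order. The ratio depends on the length of the coding part of each RNA, so it orders the genes in these libraries only.

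**Figure D4:**
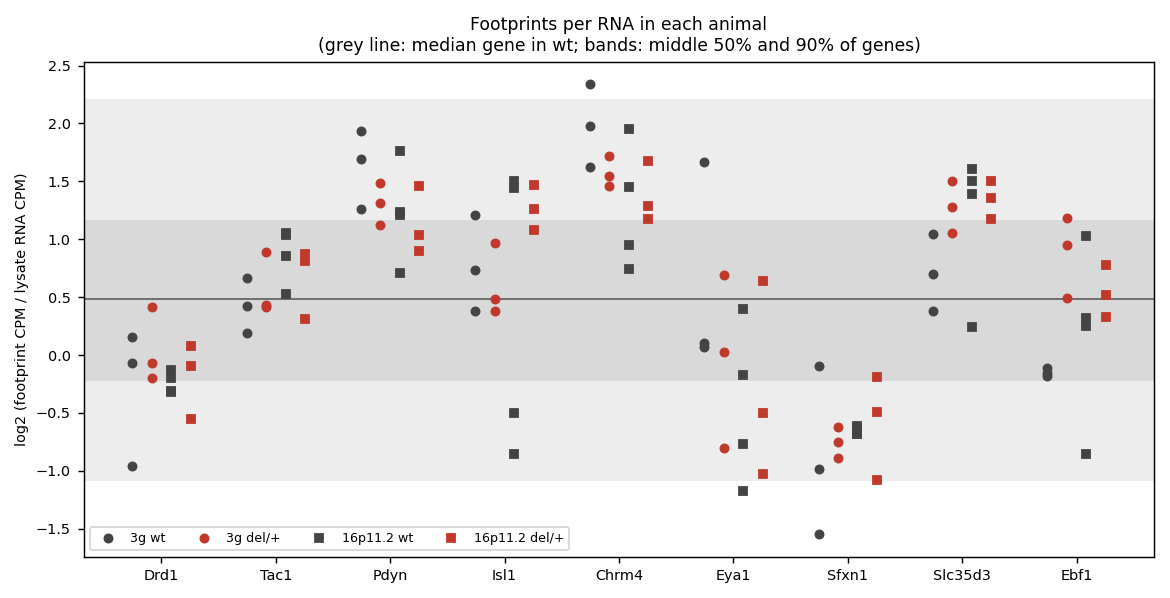
Log2 footprints per RNA (y axis) of the 9 genes, with 1 point per animal by line and genotype, a grey line at the median gene in wt animals, 0.49, and bands over the middle 50% and 90% of genes. Chrm4 and Pdyn lie above and Sfxn1 below that line in every animal, Eya1 and Ebf1 did not pass both filters, and the 3g del/+ animals of Slc35d3 at 1.05 to 1.5 lie just above the 3g wt animals at 0.38 to 1.04.

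No member passed the test of genotype on this ratio. In 3g males Slc35d3 was at 0.70, 0.38 and 1.04 in wt and at 1.28, 1.5 and 1.05 in del/+ animals. The groups did not overlap, though the lowest del/+ value lay next to the highest wt value. The fitted difference was 0.65 (SE 0.34, unadjusted p = 0.0753, adjusted p = 0.662) from 10 to 32 footprint counts per library. Chrm4 was at 1.98, 2.34 and 1.62 in wt and at 1.54, 1.72 and 1.46 in del/+ animals, a fitted difference of -0.46 (SE 0.30, adjusted p = 0.724). Drd1 overlapped at -0.96, 0.16 and -0.07 in wt and -0.20, -0.07 and 0.41 in del/+ animals. Ebf1 did not pass the filter. It was at -0.18, -0.11 and -0.15 in wt (2 to 4 counts) and at 1.18, 0.49 and 0.95 in del/+ animals (10 to 15 counts), without overlap. At 2 to 4 counts the prior count of 2 raised the wt ratios. The wt animals had 4.52, 8.72 and 8.93 CPM in footprints and 9.79, 13.9 and 14.5 CPM in lysate RNA. Without the filter the fitted difference of Ebf1 was 1.41 (unadjusted p = 0.0150, adjusted p = 0.603). The share of all genes without overlap was not computed for this ratio. In 16p11.2 males the fitted differences of the 6 members lay between -0.18 (Tac1, SE 0.29) and 0.19 (Slc35d3, SE 0.56). The share of genes called was 0% in the 3g and 0.017% in the 16p11.2 line, with 0 of 6 members in each. With the animal as a block, which pairs the 2 libraries of a lysate, 2 genes were called in the 3g and 5 in the 16p11.2 line against 0 and 1 without it, and again 0 members.

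Within groups of RNA-seq libraries most members varied together, and in lysate RNA fewer did. In deviations from the group means of the 32 RNA-seq libraries, 35 of 36 pairs of members had a positive Pearson correlation, with a median of 0.477 (-0.16 to 0.88), and without 3g wt male 17 and 16p11.2 del/+ male 4 the median was 0.582. In lysate RNA of 13 animals 25 of 36 were positive, with a median of 0.217 (-0.53 to 0.79). There Sfxn1 correlated negatively with every other member but Chrm4 (0.21), from -0.53 (Slc35d3) to -0.14 (Ebf1). In RNA-seq Drd1 correlated with Tac1 at 0.842, with Chrm4 at 0.760 and with Isl1 at 0.745, and with Pdyn at 0.331, while the median over 15095 genes was 0.006. The values share libraries and depth and are given as a description.

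The pattern was shared with the indirect pathway. Drd1 correlated at 0.845 with Drd2, the D2 receptor gene, at 0.807 with Penk, the enkephalin precursor, and at 0.733 with Adora2a. Of the 6 indirect-pathway genes measured, Ptprm was the lowest at 0.128. The 14 genes of both pathways lay between 0.537 (Rasgrp2) and 0.920 (Gnal). The 6 cortical-neuron markers lay between -0.478 and -0.396. The genes most like Drd1 by this measure were Wdr17 (0.934), Ric8b (0.920), Gnal (0.920), Cacna2d3 (0.918) and Klhl13 (0.914). In lysate RNA the same genes had 0.238, 0.775, 0.858, 0.846 and 0.727. Without 3g wt male 17 and 16p11.2 del/+ male 4 the first 5 were Wdr17 (0.953), Elmod1 (0.923), Gnal (0.921), Cyld (0.916) and Ric8b (0.914), with Cacna2d3 at rank 7 and Klhl13 at rank 8.

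**Figure D5:**
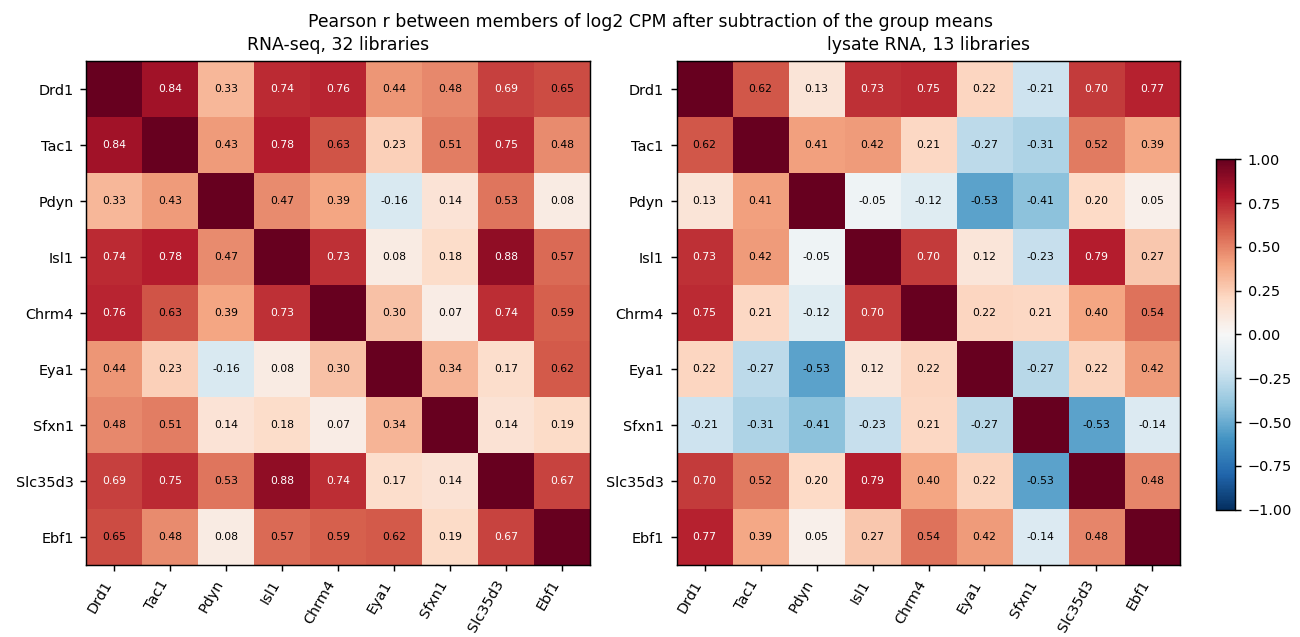
Pearson correlation of each pair of the 9 genes over deviations from group means, in 32 RNA-seq and in 13 lysate RNA libraries, coloured from -1 to 1. In RNA-seq 35 of 36 pairs are positive, and in lysate RNA 25 of 36.

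The rest of the pathway was read from lists of genes of the indirect pathway, of both pathways, of the cascade from the D1 receptor to CREB and of peptide processing and receptors. In the 4 RNA-seq comparisons by sex no gene of these lists was called by edgeR. The 6 indirect-pathway genes had a median log2 fold change of -0.21 in 16p11.2 males, where all 6 were negative, from -0.25 (Drd2) to -0.08 (Ptprm). Without del/+ male 4, which stood apart, the median was -0.11 and all 6 were again negative. In the same comparison the medians were -0.13 for GABA interneuron markers (6 of 6 negative), -0.16 for astrocyte (5 of 5), -0.26 for pericyte (5 of 5) and -0.25 for endothelial markers (4 of 5), none called, and without del/+ male 4 they were -0.12, -0.12, -0.40 and -0.49. Their part in the indirect-pathway values was not tested. The medians of the indirect-pathway genes were -0.03 in 16p11.2 females and -0.08 and -0.10 in 3g males and females. The 14 genes of both pathways had medians of -0.02 and 0.02 in 3g males and females and of -0.03 and -0.02 in 16p11.2 males and females. The 22 genes of the cascade had medians of -0.05, 0.01, -0.08 and -0.02 in the same order. The 7 genes of peptide processing and receptors had medians of -0.01, 0.06, -0.06 and -0.05. In 3g females Rgs4, a regulator of G protein signalling, had 0.34 (adjusted p = 0.204) and Pcsk1, a peptide convertase, 0.61 (adjusted p = 0.204). DESeq2 called 1 of the 22 and 1 of the 7 genes in 3g females and 1 of the 7 in 16p11.2 males. In the same 4 comparisons edgeR called no gene of the marker lists of interneurons, cortical, septal and thalamic neurons, choroid plexus, glia and vessel cells.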

How the data were processed

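RNA-seq counts per Ensembl gene were used as deposited by the authors, who processed the reads with the bcbio-nextgen pipeline from libraries depleted of ribosomal RNA, and the submitters' processing notes name HTSeq and mm10. Counts of lysate RNA and of ribosome footprints were also used as deposited by the authors. For these the notes name Bowtie2 and mm39, and the counter and its filters are not given in the sources used here, nor is the strand setting for any table. Footprint libraries held fewer counts, so their intervals are wider.

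Genes with low counts were removed with filterByExpr of edgeR 4.0.16 (R 4.3.3), libraries were scaled by TMM, and del/+ was compared with wt within each line, by sex and over both sexes, with edgeR's quasi-likelihood test. A call required p under 0.05 after Benjamini-Hochberg adjustment over all genes tested. The genotype by sex term was fitted over the 16 RNA-seq libraries of a line. For footprints per RNA both kinds of library entered 1 fit, and the test was of its genotype by assay term. CPM of each member were compared by an exact permutation test (2-sided). CPM were scaled by TMM over all libraries of an assay, and ratios and correlations used log2 CPM with a prior count of 2. Correlations used deviations from group means. The alternatives were DESeq2 1.42.0, RLE scaling, no filter, all 16 libraries in 1 fit, a replicate block and each library left out. The scripts were tested on simulated counts.

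A member was named with its fold change where its unadjusted p was under 0.1, its groups did not overlap, or it was the lowest or highest of a comparison, and Drd1 was named in the RNA-seq comparisons. Outside the 9 genes, a called gene of the pathway lists and the 5 genes most like Drd1 were named, and the lowest or highest of a list. The 9 genes and the other lists were chosen with earlier results of these data known. Footprint and lysate RNA libraries of the same number came from the same lysate, so these numbers pair the libraries, and their deviations from group means correlated at 0.079 to 0.289, over 0.1 in 12 of 13 animals. Gene symbols were matched for 54409 of 54532 and 18377 of 18411 identifiers. Of 106 list genes, 1 had no match and was not analysed here. Promoter sequences and gene positions are RefSeq's on GRCm38.p6.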

Additional observations from a re-analysis of the deposited data

Results flagged for a closer look

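In groups of 4 libraries or more, a value was singled out where its gap to the nearest other value, divided by the range of the group, exceeded Dixon's 95% critical value of 0.829. Chance alone flags about 1 in 20 groups, and 2 of 90 groups of the 9 genes were singled out. Slc35d3 in 16p11.2 wt female 3 was at 24.3 CPM where the other wt females were at 28.4 to 29.1 CPM, a ratio of 0.842. Footprints of Pdyn in 1 of the 4 wt animals of the 16p11.2 line were at 70.8 CPM where the other 3 were at 32.5 to 35.4 CPM, a ratio of 0.925.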

How the results depend on the processing

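No member was called under any alternative. In footprints of 3g males DESeq2 gave no adjusted p for any member, so none could be called there. The same held for Pdyn, Chrm4, Sfxn1 and Slc35d3 in footprints of 16p11.2 males. Of 492 estimates by DESeq2, RLE scaling, no filter, joint fits and blocks, 6 changed sign, and of 1421 with 1 library left out, 147 did, in 64 of 132 pairs of member and comparison. Without the filter Drd1 in 3g females was at -0.0048 (0.01 with it). Leaving out 1 library moved Drd1 between -0.030 and 0.13 in 3g males and between -0.030 and 0.037 in 3g females, Slc35d3 of 3g wt females against males between -0.023 (without wt male 17) and 0.17, and Tac1 of 16p11.2 males between -0.085 and 0.15. Footprints of Chrm4 in 16p11.2 males moved between -0.30 and 0.28, and footprints per RNA of Slc35d3 there between -0.14 and 0.29.

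With the replicate number as a block the Oprk1 log2 fold change over both sexes of the 16p11.2 line was 0.45 and its adjusted p 0.0519, against 0.00412 without the block, 0.00159 to 0.0156 when 1 library was left out and 5.64e-07 by DESeq2. The block changed no other call of a named gene, and the cause was not tested. Whether the shared number pairs the 16p11.2 libraries is not known. Their deviations correlated at -0.263 to 0.127, over 0.1 in 1 of 8 pairs. Libraries of unlike number were not correlated for reference, so these values cannot decide it. No paired analysis was possible for the other RNA-seq comparisons because their groups share no numbers. The block gave 2 called genes for the 16p11.2 genotype by sex term (0 without it), and the animal block 2 and 5 for footprints per RNA of the 3g and 16p11.2 lines (0 and 1 without it).

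Counts of called genes depended on the tool. DESeq2 called 1, 117, 32 and 49 genes in 3g males, 3g females, 16p11.2 males and 16p11.2 females where edgeR called 0, 1, 19 and 26, and 18 and 61 over both sexes (edgeR 1 and 33). In lysate RNA, footprints and footprints per RNA DESeq2 called 13, 11 and 13 genes in the 3g line (edgeR 3, 1 and 0) and 31, 15 and 4 in the 16p11.2 line (edgeR 19, 7 and 1), and in wt females against males 32 and 14 (edgeR 12 and 1). Without the filter edgeR called 158 genes in 3g females, 45 in 16p11.2 females and 8 in 16p11.2 wt females against males, 9, 127 and 1 in the lysate RNA, footprints and footprints per RNA of 3g males, and 43 and 2 in the footprints and footprints per RNA of 16p11.2 males. All 16 libraries in 1 fit gave 1 called gene in 3g males, and DESeq2 gave 3 for the 16p11.2 genotype by sex term. Leaving out 1 library gave 1 to 175 called genes in 3g females, the highest without wt female 39. In footprints of 3g males the 95% bounds of the members reached -1.15 and 1.18, so differences within them were not detectable at this depth.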
